A study of Mus musculus with 6 samples.

Results

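The pentose phosphate pathway enzymes are 7 genes (G6pdx, Pgls, Pgd, Rpia, Rpe, Tkt and Taldo1), found by symbol among the 55335 rows of the deposited mouse gene count table. Each symbol had 1 row, and all 7 passed the filter on low counts that left 13901 genes for testing. The cells were macrophages grown from mouse bone marrow with 20 ng/mL of macrophage colony-stimulating factor. On day 5 every culture received PAC-CM, medium taken from damaged acinar cells, which make the digestive enzymes of the pancreas. The PAC-CM group (3 libraries) had nothing further, and the second group (3 libraries) also had kinsenoside (KD), a plant glycoside, at 400 µM. The labels name no mouse strain, age or genotype. They leave unsaid if the replicates are separate cultures or animals, and p-values then measure only how far these samples differ, which may reflect technique alone. No macrophages without the conditioned medium were analysed here, so each difference below is one made with kinsenoside in the presence of that medium.

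The pathway branches from glycolysis at glucose 6-phosphate. Its oxidative branch makes NADPH at 2 steps and ends in ribulose 5-phosphate, and its non-oxidative branch turns pentose phosphates into ribose 5-phosphate for nucleotides or back into fructose 6-phosphate and glyceraldehyde 3-phosphate. In macrophages the NADPH feeds the phagocyte oxidase, nitric oxide synthase and the reduction of glutathione and thioredoxin. Several genes of the pathway are known targets of NRF2, a transcription factor of the oxidative stress response.

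Short stretches of the promoters are shown for G6pdx and Pgd because these 2 genes encode the NADPH-making steps and were the members whose promoter windows held the core of an NRF2 element. RefSeq windows (GRCm38.p6) from 250 bases before to 50 bases after each start matched all 7 genes, with 8 windows in all, since Pgd has 2 starts. The core TGACNNNGC, searched on both strands, was in 2 of the 8 windows and in 12.4% of 32851 windows of the same length. Capitals mark the match, and each sequence is written 5′ to 3′ on the gene's own strand.
G6pdx (chrX:74428919-74428947, minus strand, match 57 bases before the start and on the opposite strand): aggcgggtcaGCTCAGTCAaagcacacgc
Pgd (chr4:149166061-149166089, minus strand, match just after the inner of the 2 starts): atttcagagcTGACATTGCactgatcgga
The SP1 box core GGGCGG was in a window of each of the 7 genes and in 35.7% of all windows, and the letters TATAAA were in 0 of the 8 against 13.6% of all. Neither printed stretch holds GGGCGG or TATAAA on either strand. These matches are letters in a window and not measured binding sites.

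Library totals were between 41125059 and 47461702 counts, at which 3 counts equal at most 0.0729 CPM (the count scaled by its library total). The 11 rows of macrophage markers, among them Lyz2, Csf1r and Cd68, were detected in each library, with a summed level of 21120 to 23191 CPM in PAC-CM and 23035 to 25849 CPM with kinsenoside. Summed levels of 12 acinar markers were 7.21 to 7.75 CPM and 5.50 to 8.61 CPM, with Ptf1a at 0 throughout, and those of erythroid, B cell and fibroblast markers were at most 1.04 CPM in any library. Neutrophil markers summed to 30.8 to 42.8 CPM, T and NK cell markers to 8.55 to 16.7 CPM and dendritic cell markers to 6.13 to 9.44 CPM over all libraries. Retnlg and Elane (neutrophil), Cd3d and Ncr1 (T and NK cell) and Lum (fibroblast) were at 0 in all libraries. In all 8 marker lists the ranges of the groups overlapped. On principal component 1 (28.8% of the variance of log2 CPM) the groups lay apart, at -25.7 to -11.9 in PAC-CM and 4.29 to 30.7 with kinsenoside. Kinsenoside replicate 1 stood apart on principal component 2 (23.6% of the variance), at -39.3 against -6.13 to 19.7 for the others. In bulk RNA, fewer cells of a type and less RNA per cell cannot be told apart.

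With kinsenoside the estimates of the 7 enzymes lay on both sides of 0, and none of them passed the test. Estimates for the second NADPH-making enzyme, Pgd, and for Taldo1, Rpia and Rpe of the non-oxidative branch were 13.5% to 17.2% above PAC-CM. Fitted changes were -6.82% for G6pdx, 2.22% for Tkt and -28.5% for Pgls. By the quasi-likelihood test of edgeR, with p-values adjusted by Benjamini-Hochberg over all genes tested, 0 of the 7 passed, where 0.511% of genes did. At an unadjusted p under 0.05 there were 4 of 7 (Pgls, Taldo1, Rpe and Pgd), against 14.9% of all genes. With scaling by the total count alone, Rpe and Pgd were above that limit (edgeR unadjusted p = 0.0746 and 0.0656). DESeq2 called 1, Pgls, where it called 3.6% of genes, and limma-voom called 0, where it called 0.281%. The libraries of the groups did not overlap for 4 of the 7 after TMM scaling, a library scaling by the bulk of genes, and the share over all genes was 21.8%. The TMM factors were 1.013 to 1.019 in PAC-CM and 0.979 to 0.990 with kinsenoside. Fitted changes therefore lie above those of the printed CPM. Rpia, Rpe and Taldo1 had all kinsenoside libraries higher (10.4% of all genes) and Pgls had them all lower (11.4% of all genes). With 5 of 7 estimates above 0 (6798 of 13901 over all genes tested), the median log2 fold change of the members was 0.18, beside -0.01 over all genes tested.

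**Figure D1:**
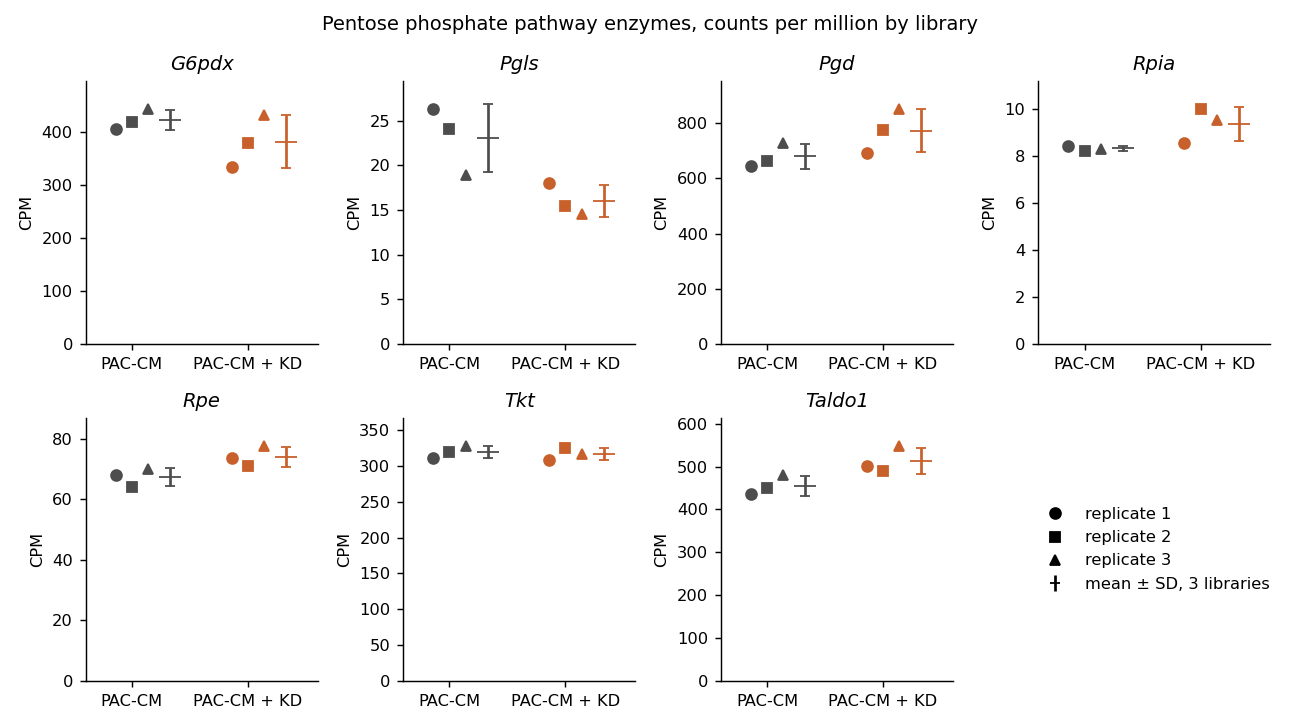
CPM (vertical axes, each from 0) of the 7 enzymes in the 3 PAC-CM libraries and the 3 libraries with kinsenoside, with replicates as circles, squares and triangles and the mean ± SD beside them. Pgls is the enzyme whose kinsenoside libraries all lie below PAC-CM, while Rpia, Rpe and Taldo1 have them all above.

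The members differed widely in level. Per kilobase of the principal GENCODE M21 transcript, Taldo1 stood highest in PAC-CM, at 370 ± 18.7 CPM per kb (SD, n = 3 per group here and below), followed by Pgd at 307 ± 19.9, G6pdx at 159 ± 7.02 and Tkt at 99.1 ± 2.61 CPM per kb. Pgls and Rpe came next at 25.8 ± 4.23 and 25.05 ± 1.13 CPM per kb, within their spread of each other. Rpia was lowest at 4.55 ± 0.0592 CPM per kb, 81.5-fold below Taldo1. For the other neighbours in that order the PAC-CM ranges did not overlap. Over the union of all annotated exons, which includes retained introns, G6pdx came before Pgd and Rpe before Pgls, so those 2 orders depend on the length used. The 7 genes lie on 7 chromosomes, and together they took 0.190% to 0.225% of all counts.

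In the oxidative branch, G6pdx encodes glucose-6-phosphate dehydrogenase, the committed and rate-limiting step and the first source of NADPH (ENSMUSG00000031400, chromosome X, 74409483 to 74429194, GRCm38, minus strand). It was at 405, 418 and 442 CPM in PAC-CM replicates 1 to 3 and at 333, 379 and 432 CPM in the kinsenoside replicates. The kinsenoside libraries spread over a wider range than PAC-CM, with replicate 1 lowest and replicate 3 inside the PAC-CM range. The log2 fold change was -0.10 (SE 0.0969, unadjusted 95% interval -0.32 to 0.12, edgeR adjusted p = 0.679). It was -0.01 without kinsenoside replicate 1 and -0.21 without kinsenoside replicate 3, so its size rests on single libraries.

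The G6pdx exons share 418 bases with Ikbkg, an NF-kB kinase subunit gene on the opposite strand. No source used here says if the counting used strand, so reads from these bases cannot be assigned. Ikbkg was at 70.0, 113 and 131 CPM in PAC-CM and at 153, 92.1 and 139 CPM with kinsenoside. With the counts of both genes summed, an alternative chosen after seeing the data, the log2 fold change was -0.0037 (edgeR adjusted p = 0.993). Ikbkg has 8110 exon bases, so this sum also adds its reads from outside the 418 shared bases. It therefore cannot show how many reads are shared. The part of shared reads in the G6pdx values was not tested.

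Pgls encodes 6-phosphogluconolactonase, which opens the lactone made by the first step (ENSMUSG00000031807, chromosome 8, 71592176 to 71601092, plus strand). It was at 26.3, 24.1 and 18.9 CPM in PAC-CM and at 18.0, 15.5 and 14.5 CPM with kinsenoside. The groups did not overlap, but PAC-CM replicate 3 and kinsenoside replicate 1 were close together. Its log2 fold change of -0.48 was the furthest from 0 among the 7 (SE 0.136, unadjusted 95% interval -0.79 to -0.17, edgeR adjusted p = 0.162), from 23.1 ± 3.78 to 16.0 ± 1.81 CPM. DESeq2 called it at an adjusted p of 0.0497, while limma-voom gave 0.203. Over 15 alternatives the adjusted p lay between 0.0497 and 0.419 and the log2 fold change between -0.60 and -0.38. The exons of Pgls share 776 bases with Fam129c on the same strand, whose counts, 17 to 31 per library, were few beside the 597 to 1142 of Pgls.

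Pgd encodes phosphogluconate dehydrogenase, the second source of NADPH (ENSMUSG00000028961, chromosome 4, 149149991 to 149166771, minus strand). It was at 646, 664 and 730 CPM in PAC-CM and at 693, 774 and 850 CPM with kinsenoside. The groups overlapped, since kinsenoside replicate 1 lay below PAC-CM replicate 3. The log2 fold change was 0.23 (SE 0.0886, unadjusted 95% interval 0.03 to 0.43, edgeR adjusted p = 0.285). It was 0.30 without kinsenoside replicate 1 and 0.15 without kinsenoside replicate 3, and passed in neither fit (edgeR adjusted p = 0.135 and 0.496).

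Within each library the 2 dehydrogenases stood in a narrow ratio. G6pdx had 0.628, 0.630 and 0.606 counts per count of Pgd in PAC-CM and 0.480, 0.490 and 0.508 with kinsenoside. The groups lay apart although neither gene alone passed the test, with means of 0.621 ± 0.0132 and 0.492 ± 0.0142, a change of -20.7%. The two-sided exact permutation test gave p = 0.10, the smallest that 3 against 3 samples allow. This ratio was chosen after the values of the members were seen. Of all other tested genes, 28.4% had a ratio to Pgd that was lower in each kinsenoside library, and 13.8% had a ratio to G6pdx that was higher in each, so the separation is not particular to this pair. With all Ikbkg counts added to G6pdx, the ratios were 0.736, 0.801 and 0.785 in PAC-CM and 0.700, 0.609 and 0.672 with kinsenoside, still without overlap. That sum includes Ikbkg reads from outside the shared bases. The ratio of G6pdx to Tkt overlapped between the groups (1.32 ± 0.0245 and 1.20 ± 0.144; exact permutation p = 0.40), as did that of Pgd to Taldo1 (1.49 ± 0.0234 and 1.503 ± 0.107; exact permutation p = 1.0). G6pdx over Taldo1 was lower in each kinsenoside library (0.927 ± 0.0059 and 0.741 ± 0.0684; exact permutation p = 0.10). G6pdx over H6pd overlapped between the groups (2.72 ± 0.258 and 3.20 ± 0.361; exact permutation p = 0.20), and so did Pgls over Pgd (0.0343 ± 0.00757 and 0.0210 ± 0.00455; exact permutation p = 0.20). In all 8 ratios were computed, of which 4 did not overlap between the groups. The exact permutation p of these 4, including G6pdx over Pgd, was 0.20 after Benjamini-Hochberg adjustment over the 8, and with 3 against 3 samples none could pass 0.05.

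**Figure D2:**
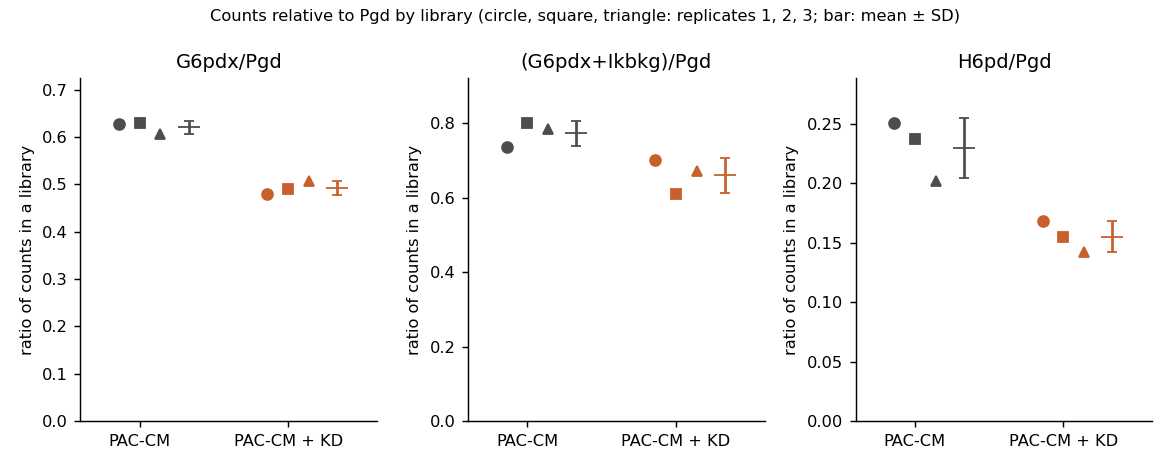
Counts of G6pdx, of G6pdx with the overlapping gene Ikbkg, and of H6pd, each divided by the Pgd count of the same library (vertical axes, each from 0), for 3 libraries per group with the mean ± SD. The kinsenoside libraries lie below the PAC-CM libraries in each panel, for G6pdx at 0.480 to 0.508 against 0.606 to 0.630.

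In the non-oxidative branch, Taldo1 encodes transaldolase, which moves 3-carbon units between sugar phosphates (ENSMUSG00000025503, chromosome 7, 141392199 to 141402968, plus strand). It was at 435, 450 and 480 CPM in PAC-CM and at 502, 491 and 548 CPM with kinsenoside. All kinsenoside libraries lay above all PAC-CM libraries, by a margin between the nearest pair that was small beside the spread within groups. The log2 fold change was 0.22 (SE 0.0712, unadjusted 95% interval 0.06 to 0.38, edgeR adjusted p = 0.213).

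Tkt encodes transketolase, the thiamine-dependent enzyme that moves 2-carbon units (ENSMUSG00000021957, chromosome 14, 30548359 to 30574720, plus strand). It was at 311, 319 and 328 CPM in PAC-CM and at 308, 325 and 317 CPM with kinsenoside. The groups covered the same range, and the highest library was 1.07-fold above the lowest, the narrowest spread of the 7. The log2 fold change was 0.03 (SE 0.0575, edgeR adjusted p = 0.852), and its unadjusted 95% interval of -0.10 to 0.16 leaves room for a small change either way. With scaling by the total count alone the estimate was -0.01, so its direction is not set.

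Rpe encodes ribulose-5-phosphate 3-epimerase, which makes xylulose 5-phosphate for transketolase (ENSMUSG00000026005, chromosome 1, 66700831 to 66719805, plus strand). It was at 68.1, 64.1 and 70.1 CPM in PAC-CM and at 73.7, 71.2 and 77.7 CPM with kinsenoside. The groups did not overlap, with PAC-CM replicate 3 just under kinsenoside replicate 2. The log2 fold change was 0.18 (SE 0.0688, unadjusted 95% interval 0.03 to 0.34, edgeR adjusted p = 0.270). Its exons share 558 bases with Kansl1l on the opposite strand, which had 358 to 550 counts per library beside 2931 to 3199 for Rpe.

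Rpia encodes ribose 5-phosphate isomerase, which makes the ribose 5-phosphate used for nucleotides (ENSMUSG00000053604, chromosome 6, 70765720 to 70792232, minus strand). It was at 8.43, 8.22 and 8.30 CPM in PAC-CM and at 8.54, 9.98 and 9.53 CPM with kinsenoside. The groups did not overlap, but kinsenoside replicate 1 lay next to the PAC-CM libraries. The log2 fold change was 0.21 (SE 0.102, unadjusted 95% interval -0.02 to 0.45, edgeR adjusted p = 0.373). Rpia had 363 to 421 counts per library, for which counting alone gives a coefficient of variation of about 5.10%. The PAC-CM libraries varied by 1.302%, less than counting error, so their closeness is no measure of precision. For the other 6 enzymes counting error was 0.563% to 3.42%.

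Summed over its 3 genes, the oxidative branch had 1125 ± 58.8 CPM in the PAC-CM group and 1170 ± 126 CPM in the kinsenoside group, which overlapped. The 4 genes of the non-oxidative branch summed to 823, 842 and 887 CPM in PAC-CM and to 892, 897 and 952 CPM with kinsenoside. These groups did not overlap, and the gap between the nearest libraries was smaller than the SD of either group (32.8 and 33.4 CPM). Taldo1 and Tkt make up most of that sum.

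**Figure D3:**
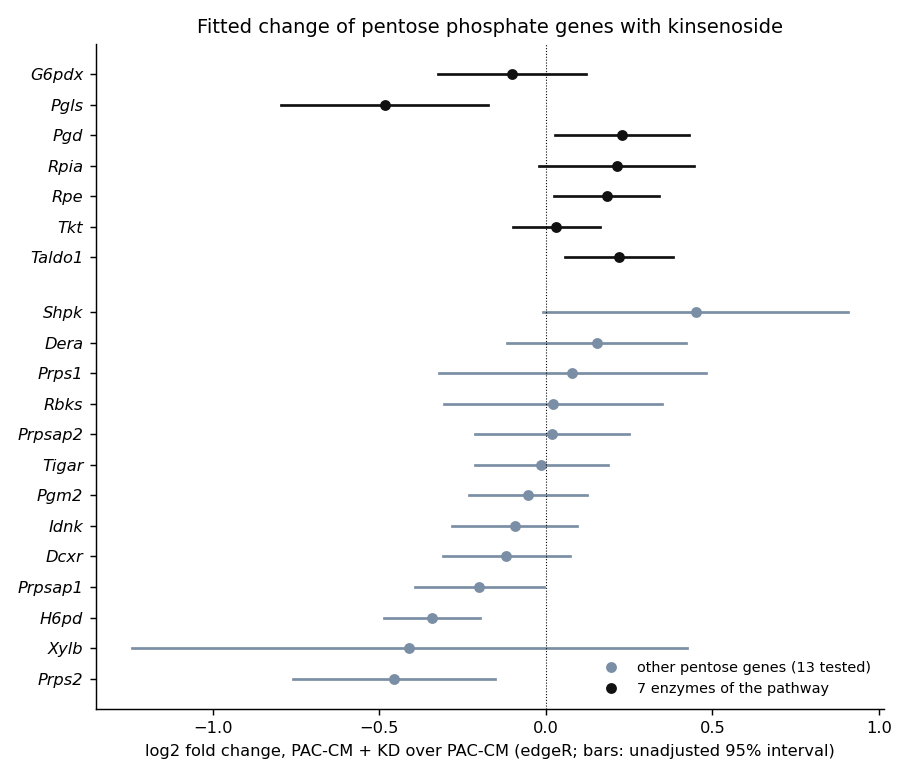
Fitted log2 fold change with kinsenoside (horizontal axis) for the 7 enzymes in black and 13 tested genes of pentose metabolism in blue, with unadjusted 95% intervals as bars. Estimates of the 7 enzymes run from -0.48 for Pgls to 0.23 for Pgd, and no gene shown passed after adjustment over all genes.

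Of 17 other pentose phosphate and pentose genes, 13 were tested and 0 passed in edgeR's test, where 0.511% of all genes did. At an unadjusted p under 0.05 there were 3 of the 13, against 14.9% of all genes, and the median log2 fold change was -0.05. DESeq2 called H6pd alone of the 13 (3.6% of all genes) and limma-voom none (0.281% of all genes). H6pd, which encodes the dehydrogenase that runs the first 2 steps in the endoplasmic reticulum and makes NADPH there, came nearest to the threshold. It was at 162, 158 and 147 CPM in PAC-CM and at 117, 120 and 121 CPM with kinsenoside, and the groups were well apart. Its log2 fold change was -0.34 (SE 0.0627, unadjusted 95% interval -0.48 to -0.20, edgeR adjusted p = 0.0711). H6pd passed with DESeq2 (adjusted p = 0.00179) and with scaling by the total count (edgeR adjusted p = 0.0421), and over the other alternatives the adjusted p was up to 0.251.

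The ratio of H6pd to Pgd was 0.251, 0.237 and 0.202 in PAC-CM and 0.168, 0.155 and 0.142 with kinsenoside, with no overlap. Its exact permutation p was 0.10, the smallest possible. Of all tested genes other than Pgd, 28.4% had a lower ratio to Pgd in each kinsenoside library. H6pd alone already lay apart between the groups, so this ratio is not separate evidence. Prps2, a synthetase that turns ribose 5-phosphate into the nucleotide precursor PRPP, was at 16.2, 12.98 and 15.7 CPM in PAC-CM and at 9.05, 10.7 and 11.9 CPM with kinsenoside (edgeR adjusted p = 0.174). It was named after its values were seen, as was Shpk, the sedoheptulose kinase, at 2.35 ± 0.579 and 3.11 ± 0.203 CPM (edgeR adjusted p = 0.341). The most abundant of the others were Pgm2, at 219 ± 8.53 and 205 ± 17.4 CPM, and Dera, the deoxyribose-phosphate aldolase, at 52.5 ± 5.998 and 56.6 ± 7.38 CPM. Pgm2 is the chromosome 4 row of that name, and its place in the list rests on its symbol alone. The list's median log2 fold change of -0.05 is the value of this row. Dcxr, Idnk and Prpsap2 had log2 fold changes of -0.12, -0.09 and 0.02, with edgeR adjusted p of 0.563, 0.651 and 0.962. Without PAC-CM replicate 3 Dcxr was at -0.05, and without kinsenoside replicate 1 Idnk was at -0.04.

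The copies of the main enzymes were near or at 0. G6pd2, an autosomal copy of G6pdx, had 1 to 4 counts per library, Tktl2 had 3 counts in kinsenoside replicate 1 and 0 elsewhere, and Tktl1 had 0 in each library. The near-identical sequence of G6pd2 and G6pdx means that these few reads may belong to either gene. They are few beside the 14452 to 19851 counts of G6pdx per library. How reads that match both genes were counted is not stated, and their effect on the G6pdx values was not tested.

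Around the pathway, 96 distinct genes in 8 lists, the pentose list included, were tested, and 0 passed in edgeR's test (0.511% of all genes), with a median log2 fold change of -0.01. An unadjusted p under 0.05 was found for 22 of the 96, or 22.9%, against 14.9% of all genes. DESeq2 called 9 of them, where it called 3.6% of all genes, and limma-voom called 0, where it called 0.281%. Among them were H6pd, Hk2, Pfkm, Nos2, Gsr, Gclm, Prdx1 and Ftl1. The lists were not chosen independently of these data. Of 10 tested genes of glucose uptake and glucose 6-phosphate supply, 7 estimates lay below 0 (7103 of 13901 over all genes tested). Hk2, the inducible hexokinase, named after its values were seen, was at 194, 194 and 197 CPM in PAC-CM and at 156, 157 and 157 CPM with kinsenoside. Its groups were tight and far apart relative to their spread (log2 fold change -0.27, SE 0.0548, edgeR adjusted p = 0.0845). Hk3, the most abundant hexokinase gene by counts, was at 1253 ± 42.2 and 1201 ± 63.1 CPM, and Gpi1, the isomerase that leads glucose 6-phosphate into glycolysis instead, at 708 ± 67.6 and 697 ± 10.9 CPM.

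Among 10 tested glycolytic genes that exchange intermediates with the pathway, 8 estimates lay below 0 (7103 of 13901 over all genes tested). Their median log2 fold change was -0.11. Pfkfb3, which drives phosphofructokinase through fructose 2,6-bisphosphate, was at 541 ± 15.2 and 438 ± 34.7 CPM (edgeR adjusted p = 0.164), and the phosphofructokinase gene Pfkm at 9.49 ± 0.299 and 6.72 ± 0.633 CPM (edgeR adjusted p = 0.122). Both were named after their values were seen. Gapdh and Aldoa, the most abundant of the list, had log2 fold changes of -0.05 and 0.05.

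Of 14 tested genes of other NADPH supply, 6 estimates lay above 0 and 8 below, and Glud1 and Nadk, the NAD kinase gene, both had a log2 fold change near 0 (0.02 and 0.03). Of 16 NADPH-using enzymes, 9 estimates lay above 0 (6798 of 13901 over all genes tested). Nos2, the inducible nitric oxide synthase, was at 1936 ± 278 and 1247 ± 78.2 CPM (log2 fold change -0.59, edgeR adjusted p = 0.0640), and Cybb, the catalytic subunit of the phagocyte oxidase, at 3262 ± 197 and 2995 ± 236 CPM (edgeR adjusted p = 0.691). Nos2 passed in 5 of 15 alternatives. Gsr, the glutathione reductase that spends NADPH, was at 190 ± 16.2 and 232 ± 17.3 CPM (edgeR adjusted p = 0.131, DESeq2 adjusted p = 0.0323).

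The 13 NRF2 target genes outside the pathway had 11 estimates above 0, where 6798 of 13901 were above 0 over all genes tested. Their median log2 fold change was 0.27, beside 0.18 for the 7 pathway enzymes and -0.01 over all genes tested. Gclm, a glutathione synthesis subunit, had the log2 fold change furthest from 0 in that list at 0.81 (176 ± 30.3 and 299 ± 58.4 CPM, edgeR adjusted p = 0.129). It passed with DESeq2 (adjusted p = 0.000144) and in edgeR with the replicate block (adjusted p = 0.0131). Prdx1, a peroxiredoxin, was at 6628 ± 305 and 7879 ± 565 CPM (edgeR adjusted p = 0.131, DESeq2 adjusted p = 0.0310). Gsr, Gclm and Prdx1 were named after their values were seen. Fth1 and Ftl1, the ferritin genes and the most abundant of the list, had log2 fold changes of 0.14 and 0.27 (edgeR adjusted p = 0.477 and 0.135). Ftl1 passed with DESeq2 (adjusted p = 0.0293), and Fth1 was at 0.07 without kinsenoside replicate 1.

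Among 14 nucleotide synthesis genes that use ribose 5-phosphate, 0 had an unadjusted p under 0.05 in edgeR, against 14.9% of all genes. The same count was 6 of 13 for NRF2 targets, 6 of 16 for NADPH-using enzymes and 3 of 10 for glycolytic genes. It was 2 of 10 for glucose supply, 2 of 14 for other NADPH supply and 1 of 9 for proliferation. Some genes are in more than 1 list. For the nucleotide synthesis genes the median log2 fold change was -0.03. Aprt and Hprt, which salvage purine bases with PRPP, had -0.01 and 0.02. Of 9 proliferation genes, Pcna had 0.20 and Mki67 -0.25 (edgeR adjusted p = 0.221 and 0.569). Without kinsenoside replicate 3 the Mki67 estimate was -0.07.

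The genes whose course over the 6 libraries was most like that of G6pdx were none of the other enzymes. Likeness was the root mean square distance between centred log2 CPM values over 7696 other genes averaging 10 CPM or more. Among the nearest were Araf at 0.0170, Galnt7 at 0.0199, Bambi-ps1 at 0.0307 and March1 at 0.0324. Of the pathway, Tkt was nearest at 0.122 (rank 1340), then Pgd at 0.170 (rank 3649), Rpe at 0.176, Taldo1 at 0.182 and Pgls at 0.324 (rank 7089), while Rpia was under the level minimum. This distance also depends on how much a gene itself varies. Tkt, the enzyme with the narrowest spread, can therefore lie near G6pdx without following its course. With 6 libraries and so many genes, close matches arise easily, and the distances describe these libraries only.

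**Figure D4:**
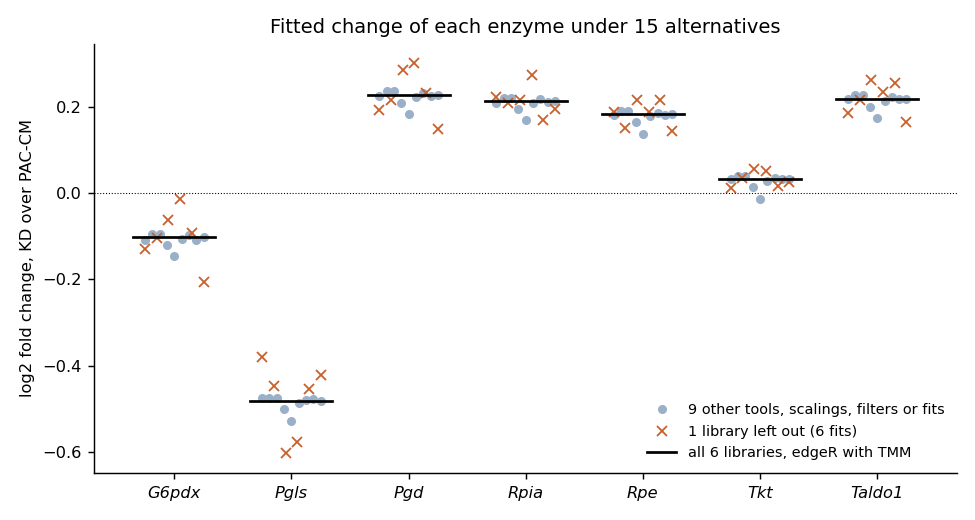
Fitted log2 fold change of each enzyme (vertical axis) with all 6 libraries in edgeR (black bars), under 9 other tools, scalings, filters or fits (blue points), and with 1 library left out (orange crosses). Pgd, Rpia, Rpe and Taldo1 stay above 0 and Pgls and G6pdx below 0 in these fits, while Tkt is at -0.01 with total count scaling.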

How the data were processed

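RNA-seq gene counts of 6 libraries were used. The labels' protocols state 1.0 µg of total RNA, mRNA enrichment and 150-nucleotide paired reads. The authors deposited whole-number counts per Ensembl gene, and these counts were used as deposited. Per the submitters' processing notes the build was GRCm38 and the tools included STAR, DESeq2 1.16.1 and StringTie 1.3.1c, in no stated order; the counting tool and its use of strand stay unnamed in the labels. Reads of overlapping genes can therefore pass between them.

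All 6 libraries entered 1 fit in edgeR 4.0.16 (R 4.3.3, limma 3.58.1): filterByExpr, TMM, robust quasi-likelihood with 4 residual degrees of freedom, a two-sided test, and Benjamini-Hochberg adjustment over 13901 genes at 0.05. SE is the log2 fold change divided by the root of F. CPM is the count over the library total. Log2 CPM used a prior count of 2. Coordinates and lengths are from GENCODE M21, which holds 55154 of the 55335 identifiers. The script was checked on simulated counts, where small shifts were mostly missed. Its recovery was 22 out of 67 at 1.5-fold, 46 out of 67 at 2-fold and 59 out of 66 at 4-fold. Another 19 calls out of 146 fell on genes given no shift, while simulated data without any shift gave 0. All 7 enzymes had fitted changes smaller than 1.5-fold, so not passing is weak evidence that they did not change. Alternatives were DESeq2 1.42.0, limma-voom, other scalings and filters, a replicate block, non-robust estimates and leaving out each library.

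The members and gene lists were chosen with earlier results of these data known. Named genes are all members, the 6 most abundant other pentose genes, the 2 most abundant of each other list, any that passed, the 5 nearest to G6pdx without clone names, and overlapping gene models. Others are said to be named afterwards. Some genes are not reported here.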

Additional observations from a re-analysis of the deposited data

How the results depend on the processing

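None of the 7 enzymes passed under 14 of 15 alternatives; DESeq2 called 1. Genes called over all genes numbered 71 in the main fit, 490 with DESeq2 and 39 with limma-voom. There were 88 with total count scaling, 105 with no filter on low counts, 42 with the replicate block and 36 with non-robust estimates. With 1 library left out there were 13 to 98. In the pathway lists with the 7 enzymes, where 0 passed, DESeq2 called 10, total count scaling 2 (H6pd and Nos2), no filter on low counts 1 (Nos2) and the replicate block 2 (Gclm and Nos2), and leaving out 1 library 0 to 1. The cause was not tested. Over all genes tested, replicate numbers gave no sign of pairing (correlations of deviations 0.00874, -0.101 and 0.135). G6pdx and Pgd nonetheless rose in CPM, and Pgls fell, from replicate 1 to replicate 3 in both groups, unlike the other enzymes. The replicate block lowered the unadjusted edgeR p of each enzyme except Rpia, for Pgd from 0.0312 to 0.00637. It left the enzymes' calls at 0. Uncalled estimates near 0 changed sign. With total count scaling Tkt was -0.013, Prpsap2 -0.026, Gpi1 -0.022, Nadk -0.017, Glud1 -0.022 and Hprt -0.023. Aprt was 0.00043 with DESeq2 and 0.00037 with RLE scaling. With 1 library left out, Prpsap2 ranged from -0.048 to 0.078, Hk3 from -0.038 to 0.022, Gpi1 from -0.055 to 0.076, Aldoa from -0.023 to 0.11, Nadk from -0.010 to 0.065, Hprt from -0.051 to 0.11 and Aprt from -0.063 to 0.059. Leaving out 1 library moved 19 of the 35 named estimates by over 1.5 times, among them the 7 with a sign change. Of those that kept their sign, Pgm2 ranged from -0.13 to -0.0094, Cybb from -0.12 to -0.018, Dera from 0.053 to 0.25, Tkt from 0.012 to 0.055, Glud1 from 0.010 to 0.040 and Gapdh from -0.075 to -0.030, and Dcxr, Idnk, Fth1, Mki67, G6pdx and Pgd are given with their results. Among the 7 enzymes depth limits Rpia most, with 363 counts in its lowest library.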
